A study of Mus musculus with 14 samples.

Results

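DN cells, one of 3 populations of CD8+ T cells sorted from E.G7 tumors, were compared with both other populations at once, to find which transcripts lay outside the range that those populations span. E.G7 is an ovalbumin-expressing derivative of the mouse EL4 lymphoma line. It was grown under the skin of Bcl6-RFP mice, a strain whose name refers to a red fluorescent reporter of Bcl6, and tumor-infiltrating lymphocytes (TILs) were sorted 21 days after inoculation as Bcl6+, DN and TIM-3+ cells. All 3 populations carry the Bcl6-RFP genotype and come from tumor-bearing hosts, so no group is free of the tumor or of the reporter. Each population has 2 libraries, and the DN cells therefore account for 2 of the 6 TIL libraries and 2 of the 14 libraries of the series; the other 8 are OT-I cells, whose transgenic T cell receptor recognises ovalbumin. Those were taken from E.G7 tumors roughly 8 days after they had been transferred, in one experiment with Prdm1 overexpressed or not and in another with Bcl6 overexpressed or not, 2 libraries each. The labels do not spell out DN, nor say whether the 2 libraries of a population came from separate animals, so p-values measure the spread between these libraries, which may be technical. In sorted bulk samples, more cells that carry a transcript and more of it per cell cannot be told apart.

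Exhausted CD8+ T cells in tumors are commonly described along an axis from stem-like cells, which use Bcl6 and Tcf7 and keep the capacity to divide, to terminally differentiated cells, which carry TIM-3 (encoded by Havcr2), granzymes and chemokines. For a gene that rises or falls steadily along that axis, a population in the middle has a level between those of the ends. A transcript that is higher, or lower, in the middle population than in both ends is not described by position on the axis, and such transcripts are the subject here. Programmes known in T cells apart from that axis include the antiviral response to interferon, exit from tissue through S1pr1, and signalling by cytokine receptors.

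RNA of Bcl6 and Havcr2 was present in DN cells. RNA levels do not give the reporter signal or TIM-3 protein, and neither was measured here. Bcl6 measured 426 and 405 CPM in the Bcl6+ libraries, 90.2 and 94.2 in the DN libraries and 14.8 and 18.1 in the TIM-3+ libraries, where CPM is the usual depth-scaled count of a gene, here after trimmed-mean (TMM) scaling of the libraries. Havcr2 measured 58.5 and 33.1 CPM in Bcl6+, 201 and 175 in DN and 1301 and 1357 in TIM-3+ cells. Both genes were thus intermediate in DN cells, and the label is used here as a name only. The T cell genes Cd3e and Cd8a were present in every library, Cd3e between 1344 and 1414 CPM in DN cells and Cd8a at 1254 and 1258 CPM there.

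Total counts per TIL library ranged from 20185577 to 22304113, and the replicates of no population agreed within counting error. The TIM-3+ libraries had more genes at 0 counts (1540 and 1546) than the DN (696 and 673) and Bcl6+ libraries (856 and 865). Markers of other cells were present in all of them. Summed dendritic cell markers, 15 genes, reached 813 to 819 CPM in Bcl6+, 623 to 634 in DN and 193 to 204 in TIM-3+ cells, and 24 macrophage and monocyte markers reached 588 to 617, 572 to 585 and 457 to 464 CPM. The latter sum mixed genes of opposite course. Cd68 measured 125 and 94.3 CPM in Bcl6+, 57.7 and 55.7 in DN, and 21.3 and 18.0 in TIM-3+ cells. Plac8 ran the other way at 34.5 and 33.6, 108 and 109, and 189 and 189 CPM, and Ccr2, described below, was also lowest in Bcl6+ cells. The sum of 7 erythroid and platelet markers was largest in DN cells, at 75.7 to 79.7 CPM against 46.9 to 50.4 in Bcl6+ and 21.4 to 27.9 in TIM-3+ cells. Each of these sums moves with a group, and its part in the differences below was not tested.

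Most genes that separated Bcl6+ from TIM-3+ cells were intermediate in DN cells. Of 3764 genes called between Bcl6+ and TIM-3+ cells at an adjusted p of 0.05, DN cells had a mean between those of the other populations in 2944 (78.2%). Among the 1508 that also differed at least 2-fold it was 1281 (84.9%), with a median position of 0.33 on a log2 scale on which Bcl6+ cells are 0 and TIM-3+ cells 1, and quartiles of 0.14 and 0.54. DN cells sat nearer to the Bcl6+ end by this measure.

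Outside that range, both DN libraries lay above all 4 others in 886 of the 9748 genes tested, those with a mean of at least 1 FPKM (fragments per kilobase of gene, scaled to library depth), and below all 4 in 791. These are 9.09% and 8.11% of the genes tested. Non-overlap of 2 libraries with 4 is a weak criterion, and the listed genes nearest to it show how small a gap it accepts. Klrb1f was just inside at 4.33 and 4.31 CPM in DN against a highest other library of 4.30, followed by S100a1 at 8.01 and 7.08 against 7.02, while Ctla4 was just outside at 598 and 581 CPM against 583. Anxa2 was just inside the lower limit at 1002 and 957 CPM against a lowest other library of 1011, followed by Pdcd1, the gene of PD-1, at 1715 and 1688 CPM against a lowest other library of 1738, and Eomes just outside it at 54.7 and 61.2 against 61.1. A further 5571 genes of the table had a mean below 1 FPKM and were not tested; the DN libraries lay above all 4 others in 500 of them and below in 207.

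A stricter test asked that DN cells differ from each population in the same direction, taking for each gene the larger p of DN against Bcl6+ and DN against TIM-3+ (edgeR quasi-likelihood test, adjusted over all 9748 genes). By this joint test 50 genes were above both populations and 30 below both, 0.513% and 0.308% of the genes tested, and in every one of the 80 the DN libraries lay outside the other 4. The sizes were modest: 7 genes were above and 3 below by at least 2-fold against both populations, and the median of the smaller fold change was 1.39 among the genes above and 1.54 among those below. Both pairwise comparisons use the same DN libraries, so a deviation of those 2 libraries enters both. Without DN replicate 1 the calls fell to 6 above and 10 below, without DN replicate 2 to 15 and 11, and without TIM-3+ replicate 2 to 29 and 19. With 1 DN library left, that library is assumed to vary like the others.

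The contrast of DN cells with the mean of the other populations called more genes, 655 higher (6.72% of those tested) and 584 lower (5.99%). It does not itself show that DN cells were outside the range. In 407 of these 1239 genes the DN mean lay between the other means, and in 338 both DN libraries were above, and in 307 below, all 4 others. Without DN replicate 1 or 2 these calls fell to 261 or 284 higher and to 191 lower in each case. The pairwise background is wider, at 7.69% of genes higher and 6.49% lower in DN than in Bcl6+ cells, and 13.2% higher and 14.9% lower in DN than in TIM-3+ cells.

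**Figure D1:**
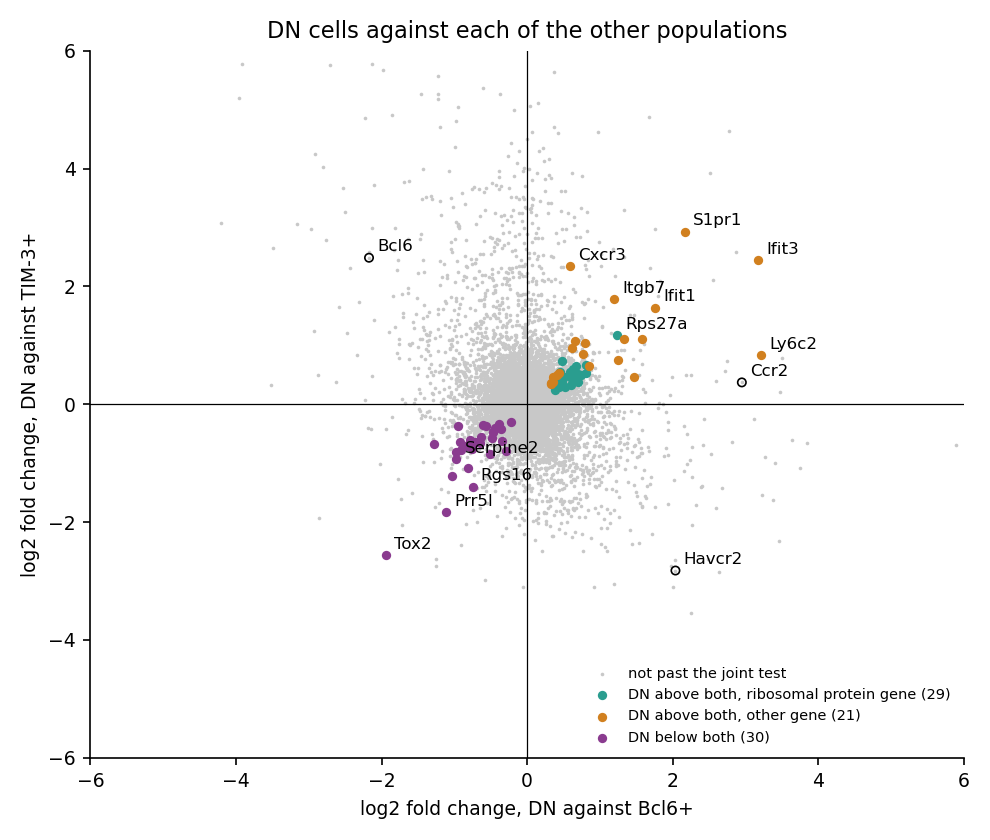
Log2 fold change of DN cells against Bcl6+ cells (horizontal) and against TIM-3+ cells (vertical) for the 9748 genes tested, with 14 genes beyond the axes not drawn; colored points passed the joint test and open circles mark 3 named genes that did not. Genes above both populations lie in the upper right quadrant and genes below both in the lower left, while Bcl6 and Havcr2 lie in the quadrants of intermediate genes.

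The 4 genes used as markers of DN cells did not behave alike. Ly6c2, which encodes the surface protein Ly6C of effector and memory CD8+ T cells (ENSMUSG00000022584, mm10 chromosome 15, 75108158 to 75111970, minus strand), measured 30.5 and 26.6 CPM in Bcl6+, 266 and 266 in DN, and 150 and 148 in TIM-3+ cells. Its level was 9.30 times that of Bcl6+ cells and 1.78 times that of TIM-3+ cells (log2 3.22, SE 0.11, and 0.83, SE 0.10; joint adjusted p = 0.00051 by edgeR). Reads shared with its near-identical neighbour Ly6c1 may be split between them. S1pr1, the receptor for sphingosine-1-phosphate that lets T cells leave tissue (ENSMUSG00000045092, chromosome 3, 115710433 to 115715072, minus strand), measured 18.4 and 21.6, 86.0 and 93.1, and 11.4 and 12.03 CPM in the same order. It stood 4.48-fold above Bcl6+ cells and 7.63-fold above TIM-3+ cells (log2 2.16, SE 0.17, and 2.93, SE 0.18; joint adjusted p = 2.1e-05 by edgeR).

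Ifit3, an interferon-induced antiviral RNA-binding protein (ENSMUSG00000074896, chromosome 19, 34583531 to 34588731, plus strand), measured 3.46 and 3.79 CPM in Bcl6+, 32.6 and 33.1 in DN, and 5.86 and 6.19 in TIM-3+ cells. Its excess in DN cells was 9.05-fold over Bcl6+ and 5.45-fold over TIM-3+ cells (log2 3.18, SE 0.29, and 2.45, SE 0.28; joint adjusted p = 0.00050 by edgeR). Ly6c2, S1pr1 and Ifit3 kept their calls in all 17 alternative analyses, including those without a DN library. Ccr2, the chemokine receptor that guides cells to inflamed sites (ENSMUSG00000049103, chromosome 9, 124101950 to 124113557, plus strand), did not pass the joint test. It measured 8.57 and 13.8 CPM in Bcl6+, 95.4 and 77.6 in DN, and 68.0 and 65.8 in TIM-3+ cells, 7.73-fold above Bcl6+ (log2 2.95, SE 0.21, adjusted p = 4.5e-07) but 1.29-fold above TIM-3+ cells (log2 0.37, SE 0.19, adjusted p = 0.17, edgeR). Its DN libraries were above all 4 others, though by less than the error of the fit against TIM-3+ cells allows a call. Ly6c2 and Ccr2 also mark inflammatory monocytes. Of 24 macrophage and monocyte markers in the table, beside 9.09% and 8.11% of all genes tested, 3 lay above all 4 other libraries and 1, C1qa, below. Beside Ccr2 these were Tyrobp, at 7.68 and 8.57 CPM in DN against at most 4.72, and Fcer1g, at 19.0 and 18.2 against at most 17.7, neither past the joint test; the monocyte and macrophage genes Lyz2 (62.4 and 61.4 CPM in DN) and Csf1r (6.36 and 6.81) were between the Bcl6+ libraries (81.6 and 88.3, and 17.2 and 12.7) and the TIM-3+ libraries (26.5 and 16.1, and 0.782 and 0.633).

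Several interferon-induced genes were above both populations. Type I interferon binds Ifnar1 and Ifnar2, and a complex that includes Stat2 and Irf9 then binds an interferon-stimulated response element (ISRE) in the promoters of antiviral genes. Of 59 listed genes of that response 50 were tested. In 20 of them both DN libraries were above all 4 others and in 0 below, against 9.09% and 8.11% of all genes, and 4 passed the joint test, Ifit3, Ifit1, Oas3 and Slfn1. The median log2 fold change of the 50 was 0.79 against Bcl6+ cells and 0.12 against TIM-3+ cells, beside -0.003 and 0.01 over all genes tested. Most of the response therefore separated DN from Bcl6+ cells (33 higher, 1 lower) more than it separated DN from TIM-3+ cells (12 higher, 2 lower); these counts share the DN libraries, and the difference between them was not tested.

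Ifit1, which binds viral RNA caps (ENSMUSG00000034459, chromosome 19, 34640871 to 34650009, plus strand), measured 8.85 and 11.3 CPM in Bcl6+, 36.3 and 32.0 in DN, and 12.9 and 8.96 in TIM-3+ cells, so that the lowest DN library was well above the highest of the others. The log2 differences were 1.76 (SE 0.27) and 1.64 (SE 0.27) with a joint adjusted p of 0.0076 by edgeR. Oas3, an enzyme that makes the messenger of RNase L on double-stranded RNA (ENSMUSG00000032661, chromosome 5, 120753098 to 120777661, minus strand), measured 27.5 and 30.3, 67.3 and 77.7, and 30.3 and 37.1 CPM. It differed by 1.33 (SE 0.17) and 1.11 (SE 0.17; joint adjusted p = 0.0053 by edgeR). Slfn1, a growth-regulating Schlafen protein of T cells (ENSMUSG00000078763, chromosome 11), was higher by 1.25 (SE 0.15) and 0.75 (SE 0.15; joint adjusted p = 0.031 by edgeR), at 32.4 and 39.5, 88.1 and 82.9, and 52.4 and 49.4 CPM. Ifit1 and Oas3 were lost without either DN library, Ifit1 also without TIM-3+ replicate 2, and Slfn1 without any DN or TIM-3+ library and with no FPKM minimum. Ifit3b, a close copy of Ifit3, followed it in direction at 4.85 and 5.79 CPM in DN against 0.473 to 1.27 elsewhere (joint adjusted p = 0.099 by edgeR), and reads may be shared between the copies.

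Other members showed that the response did not move as a block. Ifi206 measured 37.7 and 37.5 CPM in Bcl6+, 148 and 144 in DN, and 138 and 123 in TIM-3+ cells, close to TIM-3+ cells. Ifi208 was above TIM-3+ cells at 89.0 and 82.7 against 65.1 and 65.0 CPM without passing (adjusted p = 0.066 by edgeR). Irf9, Isg20, Slfn8 and Samd9l were higher in DN than in Bcl6+ cells and within 0.14 of TIM-3+ cells on the log2 scale. Oasl2 ran another way, at 9.42 and 14.4 CPM in DN and 9.47 and 8.19 in Bcl6+ cells but 2.49 and 1.07 in TIM-3+ cells. Of 30 guanylate-binding protein and interferon-gamma response genes tested, 5 were above all 4 others, beside 9.09% of all genes, and none passed the joint test. By edgeR 19 were higher than in Bcl6+ cells and 15 lower than in TIM-3+ cells.

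Interferon receptors and signal transducers were mostly not outside the range. Of 11 tested, 1 was above all 4 others and 1 below, beside 9.09% and 8.11% of all genes. Ifngr1, the ligand-binding chain of the interferon-gamma receptor (ENSMUSG00000020009, chromosome 10, 19591949 to 19610229, plus strand), was the 1 that passed. It measured 357 and 342 CPM in Bcl6+, 998 and 930 in DN, and 709 and 690 in TIM-3+ cells (log2 1.46, SE 0.06, and 0.46, SE 0.06; joint adjusted p = 0.0014 by edgeR, lost without DN replicate 1). The type I receptor chain Ifnar1 measured 275 and 282 CPM in DN, between Bcl6+ (371 and 361) and TIM-3+ cells (254 and 247). Irf8 lay below all 4 others at 605 and 582 CPM, with a joint adjusted p of 0.097 (edgeR).

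Some markers of interferon-producing dendritic cells were also above all 4 other libraries. Siglech, a receptor of plasmacytoid dendritic cells, measured 2.98 and 3.84 CPM in Bcl6+, 21.1 and 18.2 in DN, and 0.0489 and 2.53 in TIM-3+ cells (joint adjusted p = 0.22 by edgeR). Ly6d and Bst2, which plasmacytoid cells also carry, lay above all 4 others too, Ly6d at 4.80 and 5.19 CPM against at most 0.757 and Bst2 at 85.1 and 75.3 against at most 59.3. Bst2 is also on the list of the type I interferon response, so it is counted in both lists and is not separate from those genes. Siglech, Ly6d, Bst2 and Ccl22 were the 4 of 12 tested dendritic cell markers above the other libraries, beside 9.09% of all genes. Of the 12, 0 passed the joint test, and the summed level of the list was highest in Bcl6+ cells. Cd74, Zbtb46 and Xcr1, also on the list, were intermediate in DN cells. Cd74 measured 317 and 303 CPM in DN, 570 and 538 in Bcl6+, and 46.4 and 43.4 in TIM-3+ cells. The part of dendritic cells in the interferon-induced genes was not tested.

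The promoters of the induced genes were searched for the ISRE, spelled as GAAA, any 2 bases and a second GAAA, and read on both strands, in the 300 bases that run from 250 before to 50 after each RefSeq start (GRCm38.p6). Windows around the matches are shown for the 3 called genes of the interferon list that hold 1 or more, written in the direction of the gene, with matches in capitals. They extend 30 bases to each side: chr19:34640755-34640843 (plus strand) for Ifit1, chr19:34583343-34583446 (plus) for Ifit3 and chr5:120777695-120777764 (minus) for Oas3.
Ifit1: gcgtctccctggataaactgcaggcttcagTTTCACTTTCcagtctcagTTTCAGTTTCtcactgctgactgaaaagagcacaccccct
Ifit3: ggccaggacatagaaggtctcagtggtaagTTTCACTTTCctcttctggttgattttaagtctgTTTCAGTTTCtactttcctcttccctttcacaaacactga
Oas3: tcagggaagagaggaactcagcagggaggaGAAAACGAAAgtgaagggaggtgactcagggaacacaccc
Ifit1 and Ifit3 carry 2 matches each on the reverse strand and Oas3 carries 1 on the strand of the gene, while the Slfn1 window holds none of these letters. Of 41 tested genes of the list with a promoter in the table, 25 (61.0%) held the motif, and of the 17 whose DN libraries were above all 4 others 13 did (76.5%). The share was 3.94% of 7921 tested genes and 3.44% of all 32851 promoters in the table, 7.75% of 723 genes above all 4 others and 3.11% of 643 genes below. Of 36 genes above both populations by the joint test 7 held it (19.4%). These were 3 of 20 ribosomal protein genes (15%) and 4 of 16 other genes (25%). A match describes these letters and not a bound site.

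S1pr1 and Itgb7 were the genes of tissue egress and lymphoid homing that passed the joint test. T cells that recirculate keep S1pr1 and its transcriptional activator Klf2, whereas Cd69 holds S1pr1 off the surface. Of 17 tested, 9 were above all 4 other libraries and 0 below, against 9.09% and 8.11% of all genes. The summed level of the list was not outside the range, at 3945 to 3971 CPM in DN between 4625 to 4752 in Bcl6+ and 1998 to 2008 in TIM-3+ cells. The median log2 fold change of the list was 0.55 against Bcl6+ and 2.20 against TIM-3+ cells. Against TIM-3+ cells 13 were higher and 1 lower, and against Bcl6+ cells 6 were higher and 4 lower.

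Itgb7, the integrin beta chain that pairs for entry to gut and mucosal tissue (ENSMUSG00000001281, chromosome 15, 102215995 to 102231944, minus strand), measured 65.2 and 91.2 CPM in Bcl6+, 186 and 172 in DN, and 53.0 and 51.0 in TIM-3+ cells. It was 2.29-fold above Bcl6+ and 3.45-fold above TIM-3+ cells (joint adjusted p = 0.00072 by edgeR), and it was lost only without DN replicate 1, at an adjusted p of 0.058. Its partner Itga4 was intermediate, at 416 and 436 CPM between 312 to 318 in Bcl6+ and 489 to 526 in TIM-3+ cells. Klf2 and Klf3 lay above all 4 others without passing: Klf2 measured 9.65 and 11.8 CPM in DN against 4.88 to 6.64 (joint adjusted p = 0.79) and Klf3 23.3 and 22.8 against 2.74 to 11.7 (joint adjusted p = 0.18, edgeR). Gpr18, Ccr9, S1pr5 and Gimap6 were above as well without passing. Gpr18 measured 66.8 and 50.9 CPM in DN, 37.6 and 33.2 in Bcl6+, and 11.2 and 5.26 in TIM-3+ cells (joint adjusted p = 0.53 by edgeR). Gimap6 was close to TIM-3+ cells, at 583 and 584 CPM in DN against 565 and 561 there. Ccr7, the chemokine receptor for lymph node entry, was intermediate at 1188 and 1179 CPM between 2251 to 2320 and 137 to 148, and so was Cd69 at 445 and 438 CPM between 560 to 581 and 247 to 289.

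Among 12 tested chemokine receptors for inflamed tissue, 2 were above all 4 others and 0 below, beside 9.09% and 8.11% of all genes. The joint test was passed by 1, beside 0.513% of all genes above both populations. Cxcr3, the receptor for interferon-induced chemokines (ENSMUSG00000050232, chromosome X, 101731535 to 101734269, minus strand), measured 137 and 138 CPM in Bcl6+, 209 and 205 in DN, and 43.5 and 38.1 in TIM-3+ cells, higher in DN cells by 0.59 (SE 0.10) and 2.34 (SE 0.11) on the log2 scale (joint adjusted p = 0.011 by edgeR). It was lost without any single Bcl6+ or DN library. Cx3cr1 and Cxcr6 were intermediate, Cxcr6 at 1205 and 1153 CPM in DN between 452 to 476 in Bcl6+ and 2438 to 2624 in TIM-3+ cells.

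**Figure D2:**
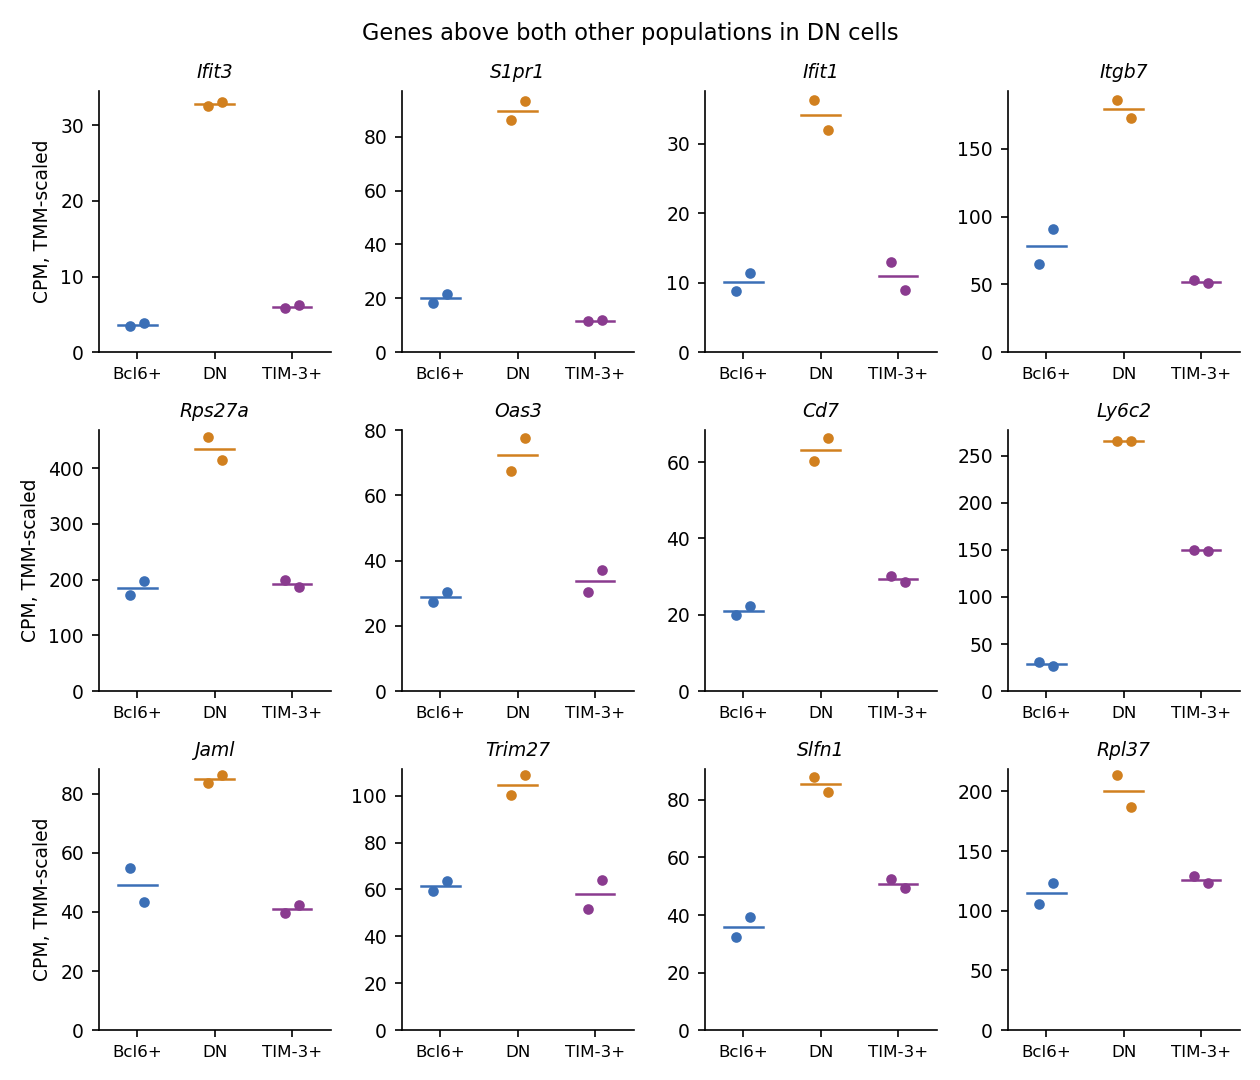
TMM-scaled CPM in each library (points) and the mean of 2 libraries (bars) for the 12 named genes above both populations; every axis starts at 0. By the way the genes were chosen, both DN points lie above all 4 others in each panel. TIM-3+ cells are second for Ly6c2 and Slfn1 and Bcl6+ cells second for S1pr1, Itgb7 and Jaml.

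The remaining genes above both populations outside the ribosome held surface molecules and survival factors. Cd7, an immunoglobulin-family costimulatory receptor of T cells (ENSMUSG00000025163, chromosome 11), measured 20.02 and 22.2 CPM in Bcl6+, 60.2 and 66.2 in DN, and 30.2 and 28.6 in TIM-3+ cells (log2 1.58, SE 0.17, and 1.10, SE 0.17; joint adjusted p = 0.0051 by edgeR, lost without either DN library). Jaml, an adhesion molecule of T cells at epithelium, measured 54.8 and 43.2, 83.5 and 86.2, and 39.7 and 42.4 CPM (joint adjusted p = 0.024, lost without either DN library or Bcl6+ replicate 2). Trim27, a ubiquitin ligase, measured 59.1 and 63.5, 100 and 109, and 51.8 and 64.0 CPM (joint adjusted p = 0.016, lost without either Bcl6+ or DN library or TIM-3+ replicate 1).

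Of 19 IL-2 and STAT5 response genes tested, 4 were above all 4 others and 1 below, beside 9.09% and 8.11% of all genes, and Pim2 and Bcl2 passed. Pim2, a kinase that promotes survival and translation (ENSMUSG00000031155, chromosome X, 7878262 to 7883432, plus strand), measured 135 and 127 CPM in Bcl6+, 206 and 208 in DN, and 99.5 and 96.7 in TIM-3+ cells (joint adjusted p = 0.0025 by edgeR, lost without either DN library). Bcl2, the inhibitor of mitochondrial cell death (ENSMUSG00000057329, chromosome 1, 106538178 to 106714274, minus strand), measured 65.2 and 72.9, 103 and 109, and 54.8 and 53.8 CPM (joint adjusted p = 0.038). Bcl2 was lost in 8 of 17 alternatives, among them the replicate block, TPM scaling and each fit without a Bcl6+ or DN library. Pmaip1, whose product NOXA antagonises Bcl2-family survival proteins, was below both populations at 276 and 262 CPM in DN against 329 to 419 (joint adjusted p = 0.041 by edgeR, lost in 6 of 17 alternatives). Of 22 apoptosis regulators tested 5 were above all 4 others and 1 below, beside 9.09% and 8.11% of all genes. Bcl2 and Pmaip1 were the 2 that passed. Mcl1 (83.8 and 85.4 CPM in DN), Bid, Casp1 and Bax (145 and 157) lay above all 4 others by less than 0.40 on the log2 scale without passing.

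Ribosomal protein genes made up most of the remaining calls. The cytosolic ribosome has a small subunit built with Rps proteins and a large subunit built with Rpl proteins, all needed for translation. Of 84 tested genes named for such proteins, 74 (88.1%) had both DN libraries above all 4 others and 0 below, and 29 (34.5%) passed the joint test, which is 29 of the 50 genes above both populations. Their median log2 fold change was 0.52 against Bcl6+ and 0.33 against TIM-3+ cells, and the range over the 29 called was 0.38 to 1.23 and 0.24 to 1.17. Rps27a, which encodes a small-subunit protein fused to ubiquitin (ENSMUSG00000020460, chromosome 11, 29545846 to 29548109, minus strand), had the largest difference at 173 and 198 CPM in Bcl6+, 455 and 415 in DN, and 200 and 186 in TIM-3+ cells (joint adjusted p = 1.7e-05 by edgeR). Rpl37 measured 106 and 124, 214 and 187, and 129 and 123 CPM (joint adjusted p = 0.0069), and Rps18 442 and 427, 663 and 643, and 446 and 443 CPM (joint adjusted p = 0.00036).

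The share of all counts that came from these genes was 2.41% and 2.62% in Bcl6+, 3.61% and 3.48% in DN, and 2.57% and 2.48% in TIM-3+ libraries, so the DN libraries stood apart by more than the replicates differed. Npm1 and Eef1b2, which serve ribosome assembly and elongation, were above both populations as well, Npm1 at 570 and 581 CPM in DN against 391 to 439. Npm1 was lost without either DN library, and Eef1b2 kept its call in 7 of 17 alternatives. These genes are short, with a median length 0.40 of that of all tested genes, and the mouse genome holds many processed copies of them, so that the counting could divide their reads. With a trend over gene length removed from each library 21 of them passed the joint test, with medians of 0.47 and 0.29. The number depended on the fit, at 51 with total counts, 17 with no FPKM minimum, 2 without DN replicate 1, 9 without DN replicate 2 and 10 without TIM-3+ replicate 2, while both medians remained above 0 in every fit, at 0.45 to 0.59 against Bcl6+ and 0.28 to 0.51 against TIM-3+ cells. The mitochondrial gene mt-Co1, a subunit of cytochrome c oxidase, was above both populations at 5426 and 5447 CPM against 4137 to 4352 (joint adjusted p = 0.00013), and mitochondrial genes held 1.56% to 1.58% of counts in DN, 1.37% to 1.41% in Bcl6+ and 1.06% to 1.07% in TIM-3+ libraries.

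**Figure D3:**
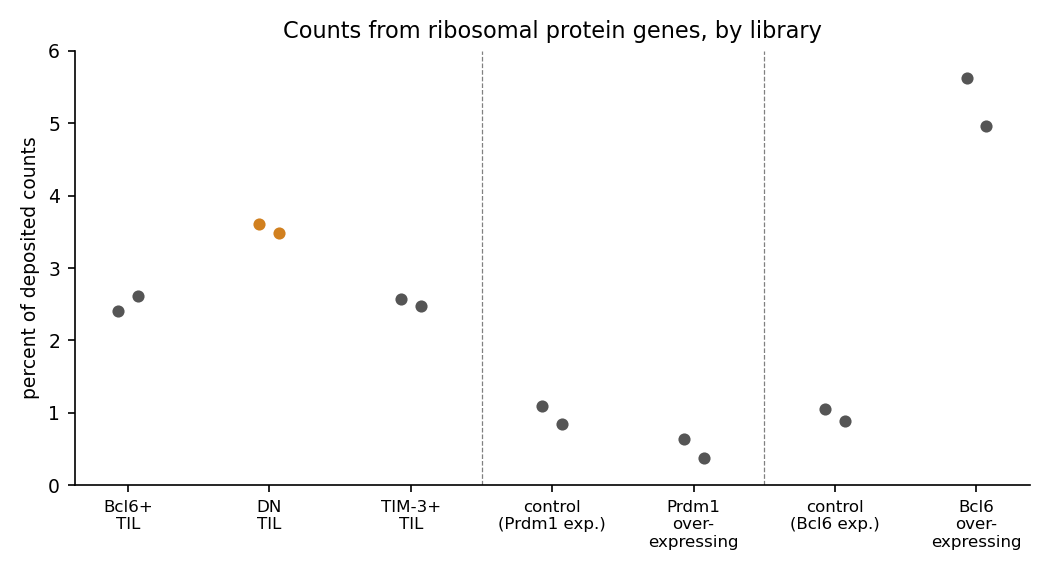
Percent of deposited counts from 84 ribosomal protein genes in each of the 14 libraries, with dashed lines between the 3 experiments, whose tables were made separately; points are single libraries and DN is in orange. DN libraries lie at 3.48% to 3.61% against 2.41% to 2.62% in the other TILs, and Bcl6-overexpressing OT-I cells lie at 4.96% to 5.62% against 0.883% to 1.05% in their controls.

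Genes below both populations included regulators of exhaustion. Chronic stimulation through the T cell receptor induces Tox and the Nr4a factors together with inhibitory receptors such as Tigit, and these genes are used to mark exhausted cells. Of 24 terminal exhaustion genes tested, 10 were below all 4 other libraries and 0 above, against 8.11% and 9.09% of all genes, and 5 passed the joint test, Rgs16, Tigit, Tox, Nr4a2 and Alcam. The list as a whole was not low: its median log2 fold change was 0.20 against Bcl6+ cells and -0.98 against TIM-3+ cells, since members such as Gzmb, Ccl3 and Entpd1 were intermediate.

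Rgs16, which shortens signalling by G protein-coupled receptors (ENSMUSG00000026475, chromosome 1, 153740349 to 153745468, plus strand), measured 863 and 952 CPM in Bcl6+, 525 and 555 in DN, and 1362 and 1483 in TIM-3+ cells. Its log2 difference was -0.75 (SE 0.06) and -1.40 (SE 0.06; joint adjusted p = 3.8e-05 by edgeR). Tigit, an inhibitory receptor (ENSMUSG00000071552, chromosome 16, 43648867 to 43664146, minus strand), measured 1438 and 1423, 961 and 1056, and 1795 and 1809 CPM (-0.50 and -0.84; joint adjusted p = 0.00021). Both kept their calls in all 17 alternatives. Tox, the chromatin-associated factor that sustains exhaustion (ENSMUSG00000041272, chromosome 4, 6686353 to 6991557, minus strand), measured 995 and 986, 756 and 803, and 1206 and 1205 CPM, a decrease of 1.27-fold and 1.55-fold (joint adjusted p = 0.0042, lost without DN replicate 1). Nr4a2, an immediate target of T cell receptor signals (ENSMUSG00000026826, chromosome 2, 57106830 to 57124003, minus strand), measured 1283 and 1296, 1079 and 1034, and 1824 and 1844 CPM (joint adjusted p = 0.0062, lost without either DN library). Alcam, the adhesion ligand of CD6, measured 104 and 96.6, 60.3 and 54.8, and 81.3 and 103 CPM (joint adjusted p = 0.039, lost in 10 of 17 alternatives). Tox2, a relative of Tox, was lowest in DN cells at 2.78 and 1.81 CPM against 6.38 to 14.1 (joint adjusted p = 0.049, kept in 5 of 16 alternatives). Lag3, Tnfrsf9, Pdcd1, Bhlhe40 and Nrn1 were below all 4 others without passing, Lag3 at 1153 and 1201 CPM against 1280 and 1321 in Bcl6+ cells (joint adjusted p = 0.29 by edgeR).

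Il10ra, Il21r, Il18rap and Stat3, genes of cytokine signalling, were also below both populations. Interleukin-10, interleukin-21 and related cytokines signal through Stat3, and interleukin-18 through the receptor chain encoded by Il18rap. Of 25 cytokine receptors tested, 3 were below all 4 others and 3 above, near the 8.11% and 9.09% of all genes, and the 3 below passed the joint test. Il10ra, the ligand-binding chain for interleukin-10 (ENSMUSG00000032089, chromosome 9, 45253837 to 45269149, minus strand), measured 666 and 699 CPM in Bcl6+, 338 and 355 in DN, and 602 and 610 in TIM-3+ cells (log2 -0.98, SE 0.06, and -0.80, SE 0.06; joint adjusted p = 1.7e-05 by edgeR). The other populations were close to each other and the DN libraries lay near 1.97-fold and 1.75-fold lower. Il21r measured 889 and 926, 474 and 463, and 585 and 618 CPM (joint adjusted p = 0.0069) and Il18rap 929 and 881, 600 and 620, and 800 and 774 CPM (joint adjusted p = 0.0051). Stat3 was lower as well, at 2037 and 1933, 1448 and 1465, and 1901 and 1950 CPM (-0.45, SE 0.04, and -0.40, SE 0.04; joint adjusted p = 0.00036). Il10ra and Stat3 kept their calls in all alternatives, whereas Il21r and Il18rap were lost with total counts, with TPM scaling and without either DN library, and Il21r without TIM-3+ replicate 2. The median of the receptor list was 0.06 and -0.09, near that of all genes; Il7r, Il17ra and Tgfbr1 were above all 4 others without passing, Il7r at 178 and 183 CPM against 147 and 148 in Bcl6+ cells.

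Serpine2, a secreted inhibitor of serine proteases such as thrombin (ENSMUSG00000026249, chromosome 1, 79794197 to 79861180, minus strand), had the smallest joint p of all 9748 genes. It measured 1300 and 1269 CPM in Bcl6+, 668 and 643 in DN, and 1233 and 1258 in TIM-3+ cells, 1.96-fold and 1.90-fold lower in DN cells (log2 -0.97, SE 0.05, and -0.93, SE 0.05; joint adjusted p = 6.4e-07 by edgeR). As with Il10ra, the other 2 populations did not overlap with DN and differed little between themselves. Prr5l, a partner of mTOR complex 2 (ENSMUSG00000032841, chromosome 2, 101714285 to 101883027, minus strand), measured 132 and 118, 62.5 and 53.0, and 209 and 200 CPM (-1.11, SE 0.11, and -1.83, SE 0.11; joint adjusted p = 0.00021). Ikzf4, the Ikaros-family factor Eos (ENSMUSG00000002578, chromosome 10), measured 51.7 and 47.3, 23.9 and 24.4, and 52.3 and 59.6 CPM (joint adjusted p = 0.0062, lost without either DN library).

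Further low genes spanned several functions. Osr2, a zinc-finger transcription factor (ENSMUSG00000022330, chromosome 15, 35296098 to 35303305, plus strand), measured 182 and 185 CPM in Bcl6+, 96.2 and 99.3 in DN, and 169 and 165 in TIM-3+ cells (joint adjusted p = 0.00056, kept in all alternatives). The phosphatase gene Dusp4, which turns off MAP kinases, measured 393 and 405, 233 and 230, and 342 and 364 CPM (joint adjusted p = 0.00051), and Rbl2, a retinoblastoma-family protein of resting cells, 544 and 542, 331 and 330, and 538 and 492 CPM (joint adjusted p = 0.00022). Both kept their calls in every alternative. Creb3l2, a transcription factor released from the endoplasmic reticulum, measured 146 and 142, 64.3 and 54.4, and 92.3 and 96.5 CPM, with a joint adjusted p of 0.014, and was lost in 5 of 17 alternatives. Phactr2, a regulator of protein phosphatase 1 and actin, measured 338 and 288, 197 and 202, and 317 and 312 CPM, with a joint adjusted p of 0.0016, and was lost without DN replicate 1. Tcn2, the carrier of vitamin B12, Prim2, a subunit of DNA primase, and Tmem170b had joint adjusted p values of 0.041, 0.042 and 0.034, and each was lost in at least 8 of 17 alternatives. Of all 30 genes below both populations 9 kept their calls in every alternative, as did 6 of the 50 above.

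**Figure D4:**
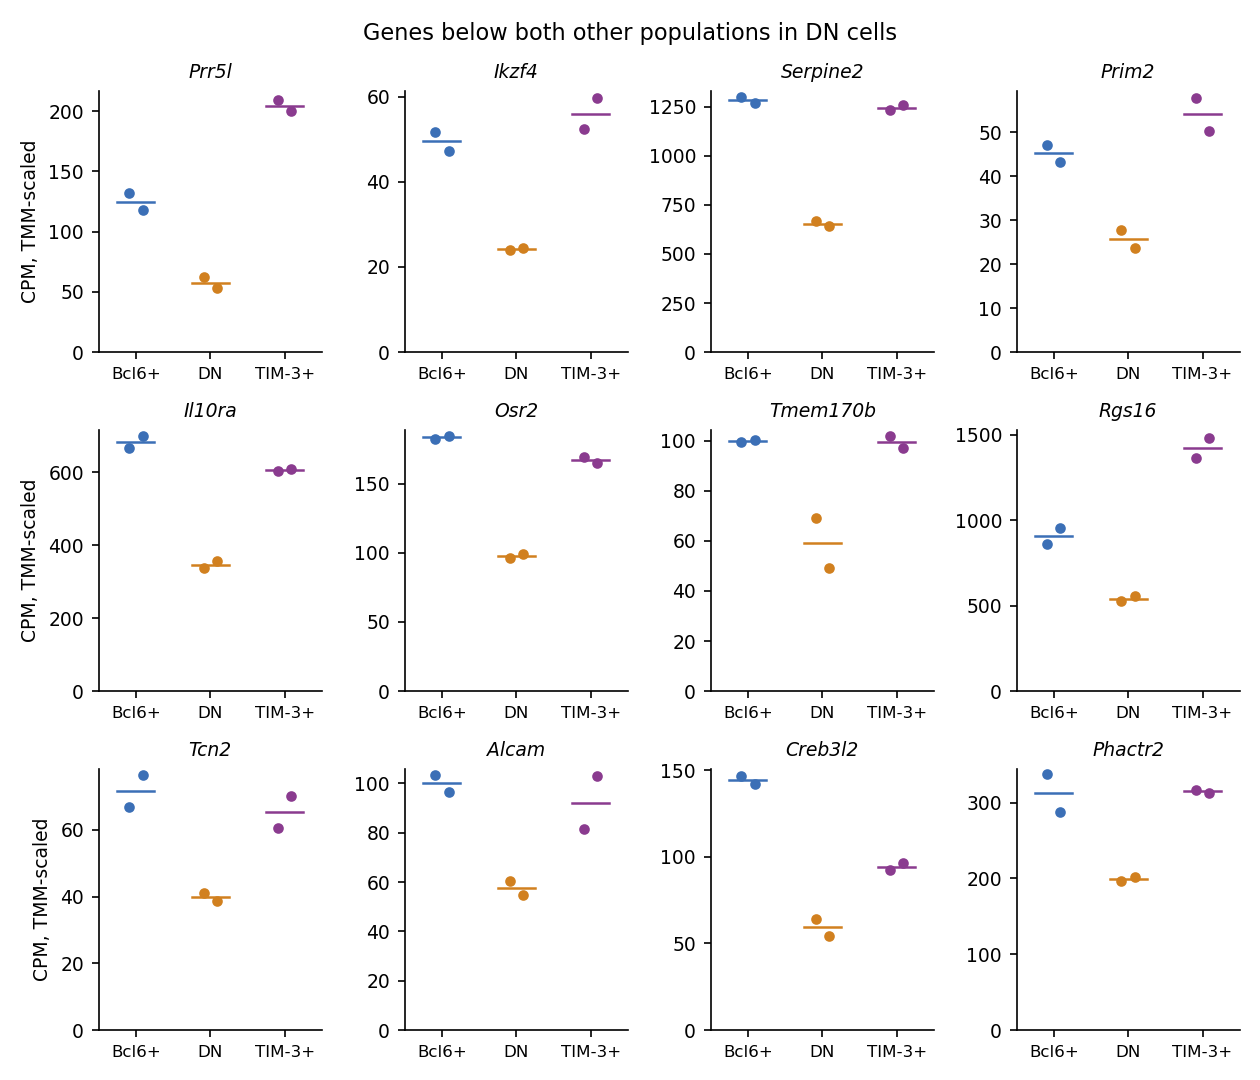
TMM-scaled CPM in each library (points) and the mean of 2 libraries (bars) for the 12 named genes below both populations, with axes from 0. By the way the genes were chosen, both DN points lie below all 4 others in each panel. For Serpine2, Il10ra and Osr2 the Bcl6+ and TIM-3+ libraries are close together, while Prr5l and Rgs16 are highest in TIM-3+ cells.

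As groups, stem-like progenitor and proliferation genes were not outside the range of the other populations. Of 20 stem-like progenitor genes tested 0 passed the joint test and 2, among them Il7r, were above all 4 others, near the 9.09% of all genes. Tcf7 was intermediate at 548 and 549 CPM in DN between 861 to 951 and 36.0 to 48.9. The list's median was -0.79 against Bcl6+ and 2.77 against TIM-3+ cells. Of 40 proliferation genes 0 passed; 18 were higher than in Bcl6+ cells, 37 were lower than in TIM-3+ cells, and the medians were 0.40 and -1.45. The cell-cycle gene Mki67 measured 68.3 and 51.7 CPM in Bcl6+, 82.0 and 86.5 in DN, and 211 and 215 in TIM-3+ cells. Against the mean of the other populations 25 of the 40 were lower in DN cells, beside 5.99% of all genes, although 2 of the 40 were below all 4 other libraries, beside 8.11%. Cytotoxic effector genes also had medians of opposite sign, 1.06 and -0.84 over 23 tested. Of these 4 were above all 4 other libraries and 0 below, beside 9.09% and 8.11% of all genes. The 1 that passed, Ctsw, was above both populations at 666 and 656 CPM against 472 to 526 (joint adjusted p = 0.0080 by edgeR, lost without either DN library and with the length trend removed).

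**Figure D5:**
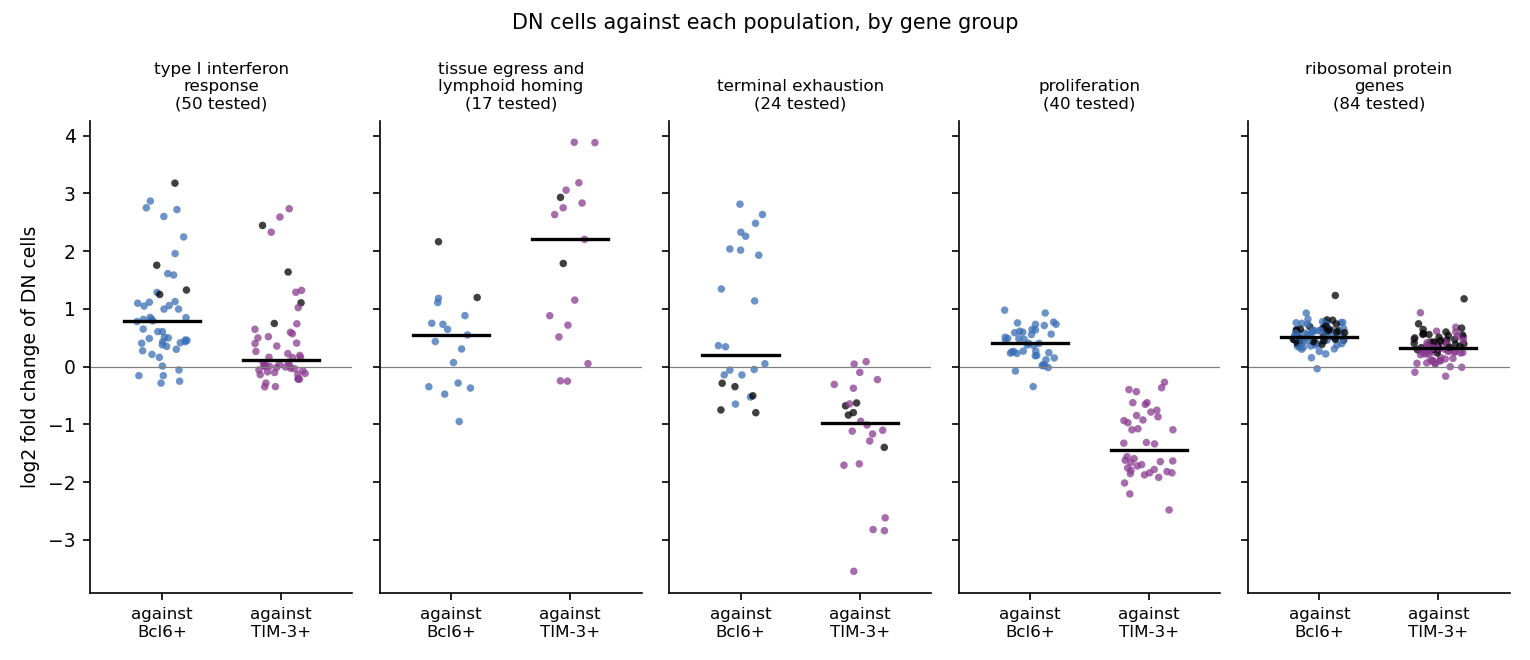
Log2 fold change of DN cells against Bcl6+ and against TIM-3+ cells for the tested members of 5 gene groups; each point is a gene, black points passed the joint test and bars are medians. Interferon-induced and ribosomal protein genes have both medians above 0 (0.79 and 0.12, 0.52 and 0.33), proliferation genes have medians of opposite sign (0.40 and -1.45), and exhaustion genes have black points below 0 on both sides although their median against Bcl6+ cells is 0.20.

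Markers of other cells were counted over whole lists, genes below 1 FPKM included. Both DN libraries lay above all 4 others in 5 of 7 erythroid and platelet markers, 4 of 15 dendritic cell markers, 3 of 11 B cell markers and 3 of 7 natural killer and innate-like markers. They did so in 3 of 13 stromal and endothelial, 2 of 10 CD4 and regulatory T cell, 1 of 9 lymphoma and thymocyte and 0 of 9 neutrophil markers. Beside these counts stand 886 of all 9748 genes tested and 500 of the 5571 not tested. The erythroid genes were Alas2 and the globins, Hba-a1 at 37.1 and 36.3 CPM in DN, 21.9 and 26.7 in Bcl6+, and 9.43 and 13.6 in TIM-3+ cells. The copies Hba-a1 and Hba-a2 share reads. Cd4 measured 11.3 and 9.82 CPM in DN against 2.44 to 3.89 elsewhere and Cd40lg 7.96 and 7.83 against 1.14 to 2.35. Foxp3 was at most 0.417 CPM in DN, 0.379 and 0 in Bcl6+, and 6.25 and 4.68 in TIM-3+ cells. Cd4 is also the 1 gene above on the lymphoma and thymocyte list. On that list Dntt measured 13.3 and 19.2 CPM in Bcl6+, 14.3 and 15.8 in DN, and 2.15 and 3.75 in TIM-3+ cells. Themis ran the other way at 201.5 and 205.9, 306.2 and 296.8, and 475.5 and 459.1 CPM. The natural killer marker Klrb1c was at 4.05 and 4.63 CPM in DN against 0.710 to 2.17, and the other 2 of its list were Tyrobp and Fcer1g. The B cell genes were Cd79b (2.83 and 2.04 CPM in DN against at most 1.11), Fcrla (2.35 and 3.70 against at most 1.23) and Blnk (4.003 and 5.33 against at most 3.31), while Pax5 was at most 0.141 CPM in DN and the summed B cell list was highest in Bcl6+ cells, at 30.3 to 31.7 CPM against 19.9 to 21.0 in DN. The stromal genes were Sparc, Cdh5 and Kdr, each at most 1.51 CPM in DN. Foxp3, Klrb1c, Pax5, Cd79b, Fcrla, Blnk, Sparc, Cdh5 and Kdr had means below 1 FPKM and were not tested; Cd4, Cd40lg and the erythroid genes did not pass the joint test. The part of these markers in the other differences was not tested.

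The OT-I experiments gave a readout that had no part in choosing these genes. Over all 9947 genes tested in the Prdm1 experiment, 115 were higher with Prdm1 (1.16%) and 20 lower (0.201%) by edgeR. Of the 50 genes above both populations 1, Ifit1, was higher and 0 lower, and of 29 tested genes below both 1, Klri2, was higher. Ifit1 rose from 121 and 155 CPM to 317 and 356 with Prdm1 (log2 1.29, SE 0.18, adjusted p = 0.028). Klri2, a killer-cell lectin-like receptor, measured 27.4 and 22.8 against 105 and 102 CPM (2.04, SE 0.20, adjusted p = 0.011). The calls in this experiment depended on the fit. Without Prdm1-overexpressing replicate 1 the number of called genes from both sets was 23, and without either control library it was 0.

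In the Bcl6 experiment calls were common: 2459 of 9669 genes were higher (25.4%) and 2261 lower (23.4%) in Bcl6-overexpressing cells. Of the 50 genes above both populations 33 were higher (66%) and 6 lower (12%). Of those 33, 28 were ribosomal protein genes, and over all 84 tested ribosomal protein genes 80 were higher and 1 lower with a median log2 fold change of 3.63. Rps27a rose from 24.0 and 21.9 CPM to 388 and 508 (log2 4.29, SE 0.20, adjusted p = 9.1e-13). Markers of other cells rose in the same libraries: 14 of 15 macrophage and monocyte markers tested were higher and 1 lower, Tyrobp at 42.4 and 25.4 CPM against 1.48 and 1.74 (log2 4.39) and C1qa at 18.2 and 18.9 against 0.787 and 0.987 (log2 4.37), and all 4 erythroid markers tested were higher, with Hba-a1 at 9.29 and 7.89 CPM against 0 in both controls. Their part in the ribosomal change was not tested. With Prdm1 the share of counts from ribosomal protein genes was 0.647% and 0.381% beside 1.10% and 0.852% without it. Levels were not compared between experiments, whose tables were made separately.

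Outside the ribosome, 5 of the other 21 genes above both populations were higher with Bcl6 and 6 lower, near the background of 25.4% and 23.4%. The 6 lower genes were Ifit1, Ifit3, Slfn1, Ifngr1, S1pr1 and Jaml. Ifit1 measured 71.2 and 56.7 CPM in controls against 21.3 and 26.8 in overexpressing cells (log2 -1.41, SE 0.22, adjusted p = 2.5e-05) and S1pr1 123 and 127 against 70.5 and 65.5 (-0.88, SE 0.18, adjusted p = 0.00042, edgeR). The 5 higher were Cd7, Ly6c2, Trim27, Npm1 and Eef1b2, Ly6c2 at 453 and 278 CPM in controls against 638 and 766 (0.94, SE 0.20, adjusted p = 0.00068). Ccr2 was lower with Bcl6 at 546 and 551 against 101 and 143 CPM (-2.17, SE 0.19, adjusted p = 6.1e-09). Of 29 tested genes below both populations 11 were lower with Bcl6 (37.9%) and 3 higher (10.3%), beside 23.4% and 25.4% of all genes. Serpine2 fell from 1049 and 957 CPM to 485 and 483 (-1.05, SE 0.17, adjusted p = 3.2e-05), and Tigit 882 and 891 against 622 and 607 (-0.53, SE 0.16, adjusted p = 0.012). Tox ran the other way at 123 and 130 against 183 and 172 CPM (0.49, SE 0.17, adjusted p = 0.022).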

How the data were processed

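RNA-seq of 14 mouse libraries was analysed, 2 per group. The deposited tables hold a raw count and an FPKM value per gene, per the file headers. Per the submitters' processing notes the build was mm10; the TIL tables involved featureCounts, Bowtie2, DESeq2, Subread and edgeR, and the OT-I tables RSEM, HISAT2, DESeq2 and featureCounts. No source used here gives versions, roles or strandedness, so reads of overlapping genes and near-identical copies may be shared.

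Counts of the 6 TIL libraries were fitted together with edgeR 4.0.16 (R 4.3.3), TMM factors from the genes tested and a minimum mean of 1 FPKM; each OT-I experiment had its own fit. The joint test took the larger of the 2 two-sided p-values where both differences had the same sign, with Benjamini-Hochberg adjustment over all genes and a threshold of 0.05. SE was derived from the log2 fold change and the F statistic. The test was tried on simulated counts. Named genes were the 12 per direction with the largest smaller difference among called genes whose mean FPKM was 5 or more (in DN when above, in the lower other group when below), without predicted models and antigen receptor segments, then Ly6c2, Ccr2, S1pr1, Ifit3, Bcl6, Havcr2 and up to 4 members per list; any further gene was picked with its values in view. The genes and lists were chosen with earlier results of these data known. Alternatives used limma 3.58.1 and DESeq2 1.42.0. The labels do not say that replicate numbers pair samples, so the fits are unpaired. Positions come from GENCODE M21 and promoters from RefSeq. Some genes are not reported here.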

Additional observations from a re-analysis of the deposited data

How the results depend on the processing

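The 43 named genes past the joint test kept their direction against both populations in all 730 values under the alternatives. These genes were called in the same libraries that the alternatives reuse, so a change of direction was unlikely from the start. Over all named genes, called or not, 2165 values kept their side of the threshold, 129 lost and 27 gained a call. With 50 genes above and 30 below both populations, total counts gave 83 and 19, the DESeq2 Wald test 90 and 67, and requiring both pairwise adjusted p-values to pass 133 and 115. Leaving out 1 library gave 6 to 51 above and 10 to 25 below. DESeq2 size factors, TPM scaling, removal of a length trend, limma on log2(FPKM + 1) or log2(FPKM + 0.1), no FPKM minimum or a minimum of 5, and 2 alternatives chosen after seeing the data (TMM factors from all genes, FPKM for non-overlap) stayed within 1.5 times. The replicate block gave 43 and 24; the labels do not say that numbers pair samples, and replicate differences correlated at 0.007 to 0.03 between TIL populations, 0.31 for the libraries with and without Prdm1, and -0.06 for those with and without Bcl6. Against the mean of the other populations leaving out 1 library gave 261 to 664 higher and 191 to 599 lower, and total counts gave 365 lower and, for genes below all 4 libraries, 519. Of the genes outside both populations, 2 were called in the Prdm1 experiment, 34 with the replicate block (3 higher and 23 lower of 50 above, 6 and 2 of 29 below; of 83 ribosomal protein genes 37 lower, beside 1659 of all genes called against 135), 4 with DESeq2 size factors, 1 with no FPKM minimum and 0 to 23 with 1 library left out; in the Bcl6 experiment 53 were called, and 47 to 60 with 1 left out. Genes near 1 FPKM and differences near 1.2-fold are at the limit of 2 libraries a group.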
